A study of Mus musculus with 6 samples.

Results

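The genes described here are 36 members of the replication and mitosis programme, taken by name from the 27179 genes of the bulk count table and read again in the single-cell tables of the same study. They fall into 23 mitotic genes, which act between the end of DNA replication and the separation of daughter cells, and 13 S-phase genes, which make nucleotides or copy DNA. All 36 were found in both kinds of table, and all passed the filter on low counts in bulk (CPM, the count scaled to library size, above 1 in 2 or more libraries). The members were named for their function, and this was done with earlier results of these data known.

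Dividing cells switch these genes on in order. Cyclin E genes, the Mcm helicase subunits, Pcna and the nucleotide enzymes rise as cells enter S phase, largely under E2F factors. Cyclin B, Plk1, the Aurora kinases and Cdc20 rise in late G2 and mitosis, largely under the DREAM and MuvB complexes with B-Myb and FoxM1, and fall again as cells exit. Mouse cardiomyocytes divide for a short time around birth and then largely leave the cycle, often after a last round of DNA synthesis or nuclear division without cell division, while cardiac fibroblasts keep the ability to divide.

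The study asked how the age of neighbouring fibroblasts affects cardiomyocytes. Cardiomyocytes isolated from C57BL/6 mice shortly after birth (immature cardiomyocytes, imCMs) were cultured with cardiac fibroblasts of neonatal mice (NFs) or adult mice (AFs), and their RNA was sequenced in bulk from 2 libraries per group, imCM-NF and imCM-AF. The labels set the groups apart by the age of the fibroblast donor, and by the study's methods relatively more adult than neonatal fibroblasts were plated per cardiomyocyte, so donor age and plating ratio cannot be told apart. Both groups were grown with fibroblasts, so no bulk library of imCMs alone was analysed here. By the study's methods, cells of the co-cultures were sorted by dye and dispensed singly into nanowells (ICELL8). The single cells gave 1 library labelled cardiomyocytes and 1 labelled fibroblasts, so single-cell values have no replicate library and no test. These libraries also held wells named NCM0, NF0 and AF0, and the labels do not say whether their cells came from co-culture.

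Bulk counts summed to between 9278909 and 12088577 per library. The libraries within a group differed beyond counting error, at chi-square values of 8.60 (imCM-NF) and 8.42 (imCM-AF) for each degree of freedom. Nothing in the labels says that the libraries came from separate cultures, so the p-values measure the spread between these samples only. The 12 cardiomyocyte markers summed to between 34664 and 48982 CPM in the 4 libraries and the 12 fibroblast markers to between 8633 and 17110 CPM. Cardiomyocyte markers thus exceeded fibroblast markers in every library, and RNA of fibroblast markers was present in each.

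Mitotic genes were lower with adult fibroblasts. Of 23 mitotic genes, 8 were called lower in imCM-AF (edgeR quasi-likelihood test, adjusted p under 0.05 and a fall of more than 0.58 on the log2 scale) and 0 were called higher, against 4.99% of all 14041 genes tested called lower and 6.15% called higher. All 23 had a negative log2 fold change, as did 49.9% of all genes tested, and the median of the 23 was -0.49 beside 0.0011 over all genes. With the adjusted p alone, 19 of the 23 were lower, against 14.5% of all genes. In 22 of the 23 both imCM-AF libraries lay below both imCM-NF libraries, against 33.8% of all genes, and Bub1 was the exception.

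The size of the fall depended on the imCM-NF libraries. Without imCM-NF replicate 2, which had the higher level of every mitotic gene in its group, the median log2 fold change of the 23 was -0.31. Without imCM-NF replicate 1 it was -0.61, beside -0.49 with all libraries. The medians over all genes were 0.00077 without imCM-NF replicate 2 and 0.0050 without imCM-NF replicate 1. A bulk library averages over its cells, so fewer dividing cells and less of these RNAs per cell cannot be told apart.

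Called genes included 2 of the anaphase-promoting complex pathway, which ends mitosis by marking cyclins and securin for destruction. Cdc20, the activator of that complex (chr4:118432901-118437343, GRCm38), stood at 61.1 and 78.1 CPM with NFs and at 38.9 and 29.1 CPM with AFs. The difference was the largest of the 36 genes, -1.04 ± 0.13 on the log2 scale (SE, n = 2 libraries per group, adjusted p = 2.64e-05 by edgeR), or 2.06-fold. Ube2c, the ubiquitin-conjugating enzyme of the same complex (chr2:164769929-164772902), was measured at 67.1 and 88.4 CPM with neonatal and 51.2 and 44.4 CPM with adult fibroblasts, or -0.71 ± 0.12 on the log2 scale (adjusted p = 0.000428 by edgeR). For neither gene did the groups overlap.

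The mitotic kinases and their cyclins moved the same way. Plk1, the polo-like kinase that drives entry into mitosis and spindle assembly (chr7:122159435-122169884), had 50.2 and 64.0 CPM with NFs but 35.9 and 28.8 CPM with AFs, a difference of -0.83 ± 0.13 on the log2 scale (adjusted p = 0.000160 by edgeR). Aurkb, the kinase of the chromosomal passenger complex that corrects chromosome attachment and acts in cytokinesis (chr11:69045624-69051664), had 32.3 and 44.2 against 23.8 and 21.0 CPM and differed by -0.78 ± 0.14 on that scale (adjusted p = 0.000538 by edgeR). For Aurka, the centrosome and spindle pole kinase (chr2:172356190-172370886), the values were 26.6 and 37.3 against 22.1 and 17.98 CPM, which differ by -0.69 ± 0.15 (adjusted p = 0.00279 by edgeR). In each of these kinase genes the highest imCM-AF library stayed below the lowest imCM-NF library, by the narrowest margin in Aurka.

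Ccnb2 (chr9:70407689-70421554) and Ccnb1 (chr13:100778739-100786486) encode the B-type cyclins that activate Cdk1 at the entry into mitosis. Ccnb2 was at 38.9 and 54.8 CPM next to NFs and at 28.4 and 26.6 CPM next to AFs (log2 difference -0.78 ± 0.13, adjusted p = 0.000472 by edgeR). Ccnb1 was at 26.4 and 36.02 CPM next to NFs and at 18.7 and 18.8 CPM next to AFs (log2 difference -0.75 ± 0.14, adjusted p = 0.000905 by edgeR). Cdk1 itself lay just short of the fold threshold at -0.576 ± 0.11, with 80.1 and 95.7 against 65.3 and 53.1 CPM. Cenpa, the histone H3 variant that marks centromeres (chr5:30666877-30674837), lay just past it, with 54.3 and 62.1 against 38.4 and 37.1 CPM (log2 difference -0.63 ± 0.10, adjusted p = 0.000282 by edgeR).

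Mki67, the chromosome-coating protein used as a general marker of cycling cells (chr7:135689784-135716450), did not pass the test. It stood at 113.2 and 130 CPM next to NFs and at 113.1 and 97.4 CPM next to AFs (log2 difference -0.21 ± 0.10, adjusted p = 0.146 by edgeR). The lower imCM-NF library and the higher imCM-AF library were almost level. The 14 other mitotic genes that were not called ran from -0.576 for Cdk1 to -0.11 for Bub1, a spindle checkpoint kinase whose groups overlapped. They include Top2a, the topoisomerase that untangles sister chromatids, at -0.35 ± 0.11, and the cytokinesis gene Prc1 at -0.52 ± 0.10.

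**Figure D1:**
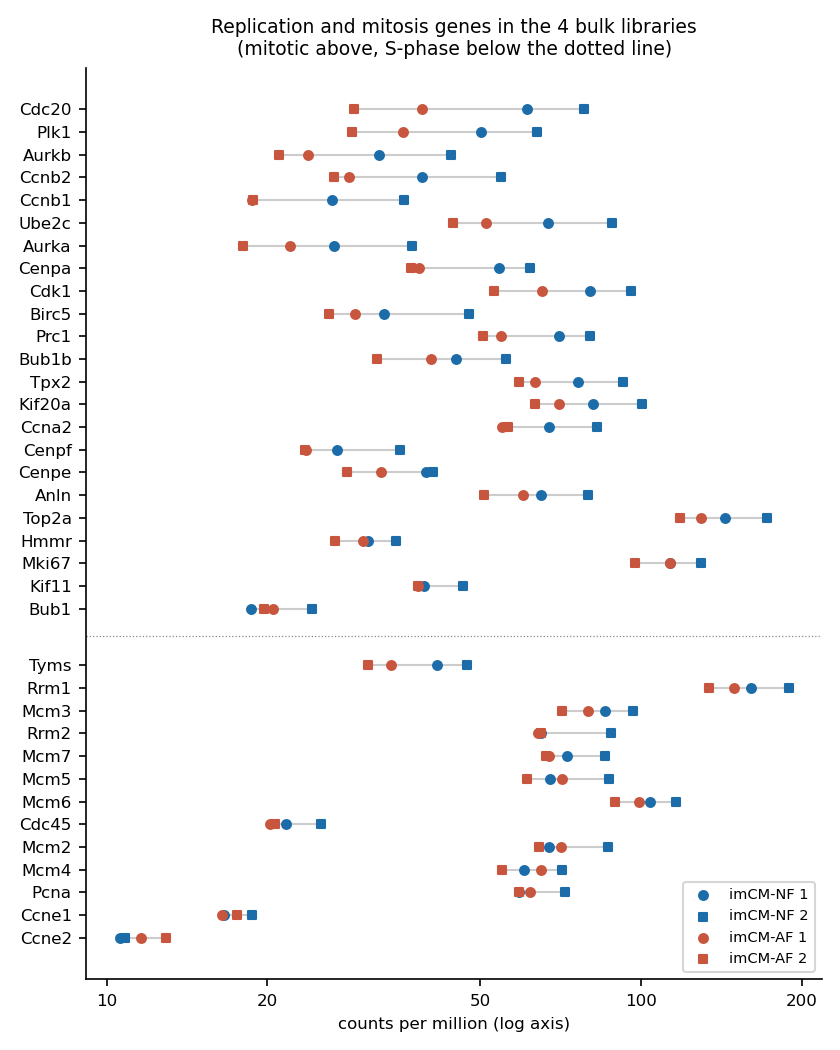
CPM (TMM-scaled, log axis) of the 36 genes in each bulk library, with imCM-NF in blue, imCM-AF in red, replicate 1 as circles and replicate 2 as squares. Red points lie left of blue points in 22 of 23 mitotic genes and in 6 of 13 S-phase genes.

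The promoters of the mitotic genes whose p was smallest are shown because late-cycle genes are known for a short element, the cell cycle genes homology region (CHR), often set near CCAAT boxes. Windows of 250 bases before and 50 bases after the start site were taken from RefSeq (GRCm38.p6) and searched on both strands for TTTGAA or TTTAAA (CHR), for CCAAT, and for TTTGGCGC, TTTCGCGC, TTTCCCGC or TTTGCCGC (E2F). Windows were matched for 30 of the 36 genes. The windows below belong to Cdc20 (chr4:118437294-118437593, minus strand), Plk1 (chr7:122159185-122159484, plus strand), Cenpa (chr5:30666636-30666935, plus strand) and Ube2c (chr2:164769679-164769978, plus strand), and read 5′ to 3′ along the gene, with every CHR, CCAAT or E2F match on either strand in capitals.
Cdc20: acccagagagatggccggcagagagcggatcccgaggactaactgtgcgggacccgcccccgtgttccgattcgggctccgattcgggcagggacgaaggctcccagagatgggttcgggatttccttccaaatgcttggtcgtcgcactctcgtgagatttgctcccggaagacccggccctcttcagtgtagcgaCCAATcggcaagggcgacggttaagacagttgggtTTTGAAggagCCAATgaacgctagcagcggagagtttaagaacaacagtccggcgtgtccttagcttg
Plk1: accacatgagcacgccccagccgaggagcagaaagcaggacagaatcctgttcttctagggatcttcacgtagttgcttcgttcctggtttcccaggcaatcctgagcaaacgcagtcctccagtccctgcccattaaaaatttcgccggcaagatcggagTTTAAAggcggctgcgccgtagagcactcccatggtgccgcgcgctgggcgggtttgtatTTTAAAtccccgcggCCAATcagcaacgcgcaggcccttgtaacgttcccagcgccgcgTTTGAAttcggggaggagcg
Cenpa: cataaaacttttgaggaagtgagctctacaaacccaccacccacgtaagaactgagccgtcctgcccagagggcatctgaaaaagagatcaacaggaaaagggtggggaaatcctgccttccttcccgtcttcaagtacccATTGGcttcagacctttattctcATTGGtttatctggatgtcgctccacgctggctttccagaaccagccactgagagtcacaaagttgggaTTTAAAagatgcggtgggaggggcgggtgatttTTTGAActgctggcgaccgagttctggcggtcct
Ube2c: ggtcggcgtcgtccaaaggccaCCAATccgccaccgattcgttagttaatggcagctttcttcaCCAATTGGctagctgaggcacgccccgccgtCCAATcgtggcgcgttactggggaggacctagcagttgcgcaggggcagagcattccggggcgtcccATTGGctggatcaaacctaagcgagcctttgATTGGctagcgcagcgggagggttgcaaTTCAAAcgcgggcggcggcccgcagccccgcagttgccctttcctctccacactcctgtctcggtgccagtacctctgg

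Of 19 mitotic genes with a window, 18 held a CHR string, 17 a CCAAT string and 16 both. The shares were 94.7%, 89.5% and 84.2%, against 30.6%, 41.1% and 13.4% of all 27025 genes with a window. All 7 of the called mitotic genes with a window held both strings, and so did Mki67, which was not called. A match is a description of the letters and does not show that a factor binds there.

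The S-phase windows differed in their letters. Of 11 S-phase genes with a window, 4 held an E2F string (36.4%), 5 a CHR string (45.5%) and 9 a CCAAT string (81.8%). An E2F string was held by 2.60% of all genes with a window, 4.63% of those tested in bulk and 1 of 19 mitotic genes. Of the 4 with an E2F string, those with the smallest p in the bulk comparison are Mcm3 (chr1:20820263-20820562, minus strand), Mcm7 (chr5:138171834-138172133, minus strand) and Mcm6 (chr1:128359656-128359955, minus strand), with the same letters in capitals. In Mcm6 a TTTGGCGC and a GCGCGAAA string, the reverse complement of TTTCGCGC, overlap.
Mcm3: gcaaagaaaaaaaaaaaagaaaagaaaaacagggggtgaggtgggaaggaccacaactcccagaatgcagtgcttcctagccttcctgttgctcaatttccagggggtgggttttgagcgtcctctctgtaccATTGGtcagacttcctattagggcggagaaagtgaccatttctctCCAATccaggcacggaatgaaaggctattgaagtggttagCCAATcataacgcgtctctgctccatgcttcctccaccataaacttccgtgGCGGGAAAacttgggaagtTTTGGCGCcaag
Mcm7: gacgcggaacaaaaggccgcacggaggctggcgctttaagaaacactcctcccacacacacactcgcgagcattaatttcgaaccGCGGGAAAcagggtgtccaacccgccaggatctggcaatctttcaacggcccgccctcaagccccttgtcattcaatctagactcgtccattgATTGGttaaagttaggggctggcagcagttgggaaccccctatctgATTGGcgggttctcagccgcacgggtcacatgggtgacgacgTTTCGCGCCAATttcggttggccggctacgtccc
Mcm6: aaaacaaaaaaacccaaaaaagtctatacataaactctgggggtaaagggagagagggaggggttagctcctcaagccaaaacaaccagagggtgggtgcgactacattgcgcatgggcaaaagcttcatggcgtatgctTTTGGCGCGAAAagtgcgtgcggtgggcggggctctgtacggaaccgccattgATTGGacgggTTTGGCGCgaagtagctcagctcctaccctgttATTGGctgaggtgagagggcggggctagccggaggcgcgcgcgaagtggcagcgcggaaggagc

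S-phase genes gave no calls in bulk. None of the 13 was called in either direction by edgeR (0 lower, 0 higher), beside 4.99% and 6.15% of all genes. None was called by DESeq2 or limma-voom. At an unadjusted p under 0.05, 6 of 13 were lower, and the share of all genes at that threshold was not counted. With the adjusted p alone 3 were lower, beside 14.5% of all genes. The log2 fold change was negative for 12 of the 13 and the median was -0.23. Without imCM-NF replicate 2 the median was -0.021 and Rrm2, Mcm2, Pcna and Ccne1 also turned positive. In 6 genes both imCM-AF libraries lay below both imCM-NF libraries, against 33.8% of all genes.

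The 2 lowest log2 fold changes within this list belonged to enzymes that supply nucleotides. Tyms, which makes thymidylate, was at 41.5 and 47.2 CPM with NFs and at 34.0 and 30.8 CPM with AFs (log2 fold change -0.46 ± 0.11, edgeR adjusted p = 0.00497). Rrm1, the large subunit of ribonucleotide reductase, was at 161 and 189 against 149 and 134 CPM (-0.31 ± 0.11, edgeR adjusted p = 0.0409), while its partner Rrm2 at 64.9 and 88.0 against 64.1 and 65.1 CPM overlapped between the groups. Among the subunits of the replicative helicase, Mcm3 had an adjusted p under 0.05 (-0.28 ± 0.10, edgeR adjusted p = 0.0485), and the 5 others ran from -0.25 for Mcm7 to -0.14 for Mcm4. Pcna, the sliding clamp of the polymerases, was at -0.12 ± 0.10.

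The E-type cyclins, which start S phase, showed no fall that passed the test. Ccne1 was at -0.06 ± 0.14. Ccne2 was the single member with a positive value, 0.20 ± 0.16 (edgeR adjusted p = 0.387), from 10.6 and 10.8 CPM beside NFs to 11.6 and 12.9 CPM beside AFs. Both imCM-AF libraries lay above both imCM-NF libraries for Ccne2, as they did for 32.1% of all genes.

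**Figure D2:**
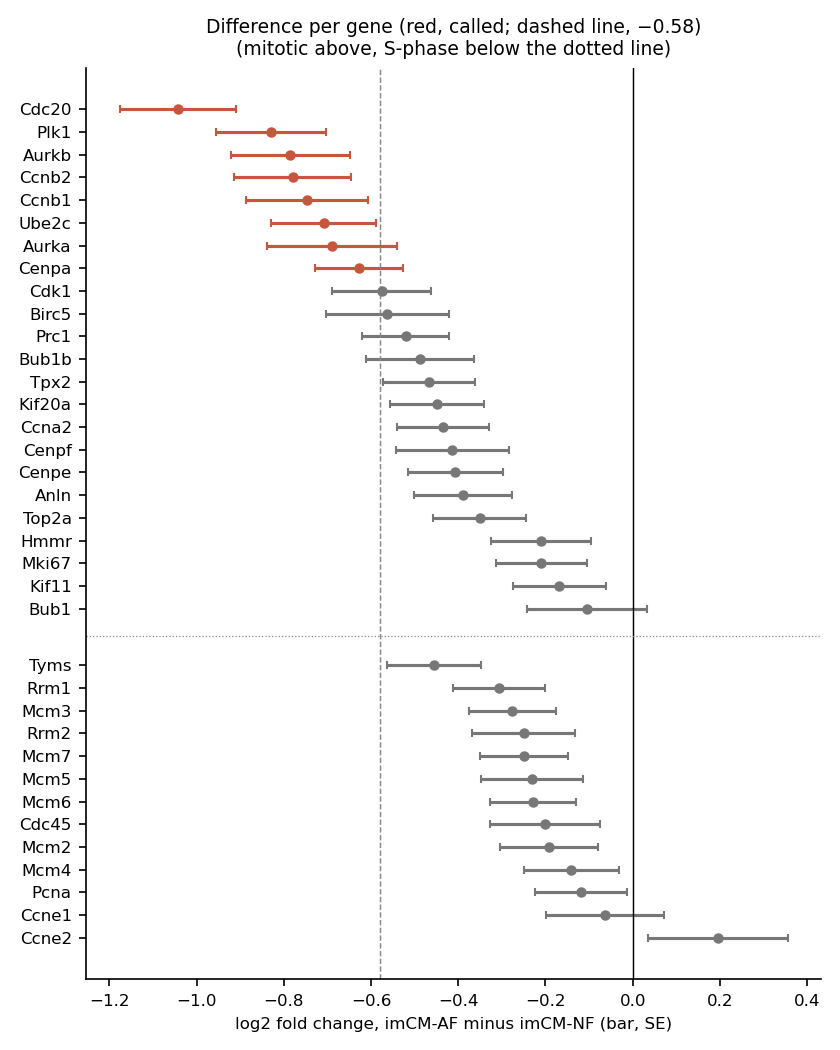
Log2 fold change, imCM-AF minus imCM-NF, of each gene with its standard error (2 libraries per group), mitotic genes above and S-phase genes below. The 8 called genes are red and lie left of the dashed line at -0.58, and Ccne2 is the one gene right of 0.

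The ratio of mitotic to S-phase genes also differed between the groups. The summed mitotic genes stood at 1287 and 1583 CPM in imCM-NF and at 1083 and 968 CPM in imCM-AF, and the summed S-phase genes at 832 and 994 against 810 and 748 CPM. The mitotic sum was therefore 1.55 and 1.59 times the S-phase sum with neonatal fibroblasts and 1.34 and 1.29 times it with adult fibroblasts, without overlap. Over the summed libraries the imCM-AF level was 0.715 of the imCM-NF level for mitotic and 0.853 for S-phase genes. Per kilobase of exon, averaged over the 4 libraries, Cdc20 had the highest level of the 36 at 27.7 RPKM, followed by Pcna at 26.3 and Rrm2 at 25.4, and Cenpf the lowest at 1.77 RPKM.

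Other genes of replication and mitosis gave 9 calls lower and 0 higher among 111 genes in 7 lists, beside 4.99% of all genes called lower and 6.15% called higher. The spindle motor and cytokinesis list held 6 of them out of 16 genes, with a median log2 fold change of -0.53, led by the microtubule-depolymerising kinesin Kif2c (-0.84 ± 0.13, edgeR adjusted p = 0.000169) and the chromokinesin Kif22 (-0.75 ± 0.13, edgeR adjusted p = 0.000658). The kinetochore and spindle checkpoint list held 1 of 17, Cenpm (-1.01 ± 0.22, edgeR adjusted p = 0.00291). The condensin, cohesin and separase list held 1 of 16, Cdca5, which encodes sororin (-0.65 ± 0.18, edgeR adjusted p = 0.0110). Leaving out imCM-NF replicate 2 left 2 calls in the spindle list and 0 in the other pair, leaving out imCM-AF replicate 2 gave 3, 2 and 0, and leaving out imCM-NF replicate 1 gave 9, 6 and 3. Without imCM-AF replicate 1 they numbered 8, 3 and 2. DESeq2 did not call Cdca5.

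For the lists that act before mitosis the counts were as follows. Of 27 replisome and polymerase genes 1 was called lower, Gins2 of the helicase complex (-0.66 ± 0.14, edgeR adjusted p = 0.00192), and their median was -0.23. None of the 12 origin licensing genes (median -0.05), the 10 nucleotide synthesis genes (median -0.16) or the 13 cell cycle transcription factor genes (median -0.0017) was called in either direction by edgeR. With the adjusted p alone, 1, 2 and 3 of these genes were lower, beside 14.5% of all genes, and 0, 1 and 1 higher. At an unadjusted p under 0.05 it was 1, 3 and 4 lower and 3, 1 and 1 higher, without a count over all genes. DESeq2 called none of them and limma-voom 1, a transcription factor gene that was lower. Without imCM-NF replicate 1 the calls were 1, 1 and 3 lower and 0, 0 and 1 higher, and without imCM-AF replicate 1 they were 0, 0 and 2 lower and 1, 1 and 1 higher. Without imCM-NF replicate 2 a nucleotide synthesis gene was called higher and Gins2 was not called. With replicate 1 left out, the replisome list had 3 calls lower (imCM-NF) or 2 (imCM-AF).

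Markers of other cell types moved with the mitotic genes. The fibroblast markers summed to 15576 and 17110 CPM in imCM-NF and to 10897 and 8633 CPM in imCM-AF, with 6 of 12 called lower, 1 called higher and a median of -0.62. Among them were Postn, encoding the matrix protein periostin (-1.87 ± 0.15, edgeR adjusted p = 1.60e-07), and Thy1 (-1.70 ± 0.13, edgeR adjusted p = 1.57e-07). The mitotic sum was 0.0826 and 0.0925 of the fibroblast marker sum in imCM-NF and 0.0994 and 0.112 of it in imCM-AF, with both imCM-AF values above both imCM-NF values. Against the endothelial marker sum the same ratio was 0.856 and 0.986 in imCM-NF and 0.926 and 0.916 in imCM-AF, which overlap.

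Endothelial markers summed to 1504 and 1606 CPM in imCM-NF and to 1170 and 1057 CPM in imCM-AF, with 4 of 10 called lower, led by Pecam1 (-0.84 ± 0.10) and Egfl7 (-0.75 ± 0.10). Smooth muscle and pericyte markers had 3 of 10 called lower and 1 higher, at 2820 and 2990 against 2449 and 2099 CPM. Macrophage markers had 2 of 9 tested called lower, at 72.3 and 87.4 against 63.2 and 70.4 CPM, with C1qa at 0 in imCM-AF replicate 1, and 0 were called by DESeq2. Of the epicardial markers 1 of 6 tested was called lower, at 154 and 106 against 122 and 129 CPM. No fibroblast or endothelial marker was at 0 in any library. Cardiomyocyte markers had 2 of 12 called higher, Pln (0.69 ± 0.16) and Ttn (0.62 ± 0.17), at 47179 and 34664 against 44662 and 48982 CPM, and 0 were called by DESeq2 or when replicate 2 of either group was left out. Fibroblast calls lower numbered between 4 and 7, endothelial calls between 4 and 5, smooth muscle and pericyte calls between 2 and 4 and macrophage calls between 0 and 3, with 1 library left out. The part of these cell types in the fall of the mitotic genes was not tested in the bulk libraries. By the study's methods the imCMs for bulk RNA were sorted by a dye given to them before co-culture, a gate meant to leave the plated fibroblasts out, whereas the labels name separation by centrifugation.

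In the single-cell tables every well carries a name written by the authors, which the labels do not define. The cardiomyocytes library held wells named NFNCM, AFNCM and NCM0 and the fibroblasts library wells named NF, AF, NF0 and AF0, each name numbered 1 to 3 or 1 to 2. Of 2462 named wells that were not controls, 2247 were kept, 1296 of cardiomyocytes and 951 of fibroblasts. Both libraries shared 269 barcodes, so wells were matched to their names within each library. Numbered names come from 1 library each, so they are shown as separate values and not tested, and intervals cover counting error only.

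Negative control wells, 5 per library, had a median of 145 UMIs (unique molecular identifiers, 1 per transcript captured) on the cardiomyocyte chip and 217 on the fibroblast chip. They held 0 mitotic UMIs of 1465 in the first, which allows up to 2048 CPM, and 10 of 3587 in the second, or 2788 CPM (1337 to 5127), above the mitotic sum of every group of wells on that chip. They also held 2 S-phase UMIs in the cardiomyocytes library, or 1365 CPM (165 to 4932), above every S-phase sum there, and 0 in the fibroblasts library. No negative control well held an Mki67 UMI.

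Mitotic genes were higher in NF and AF wells of the fibroblasts library than in wells of the cardiomyocytes library. Summed over kept wells, they took 2001 CPM (95% Poisson interval 1968 to 2034) of the UMIs in NF wells and 2112 CPM (2082 to 2143) in AF wells. In the cardiomyocytes library they took 822 CPM (807 to 838) in NFNCM wells, 1103 CPM (1086 to 1120) in AFNCM wells and 828 CPM (805 to 852) in NCM0 wells. By numbered name the cardiomyocytes library ran from 518 to 1297 CPM and the NF and AF wells from 1697 to 2280 CPM, so these did not overlap. The cell labels coincide with the libraries, so cell type and library cannot be told apart in this comparison. All names on each side share a library, so the lack of overlap does not separate them either. The NF0 wells, at 1113 CPM (1095 to 1132), and the AF0 wells, at 1603 CPM (1576 to 1630), lay below the NF and AF wells. The 2 NF0 names, at 1149 and 1092 CPM, lay within the range of the cardiomyocytes library.

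The direction between AFNCM and NFNCM wells was not that of the bulk libraries. The mitotic sum was 1086, 616 and 798 CPM in NFNCM1 to NFNCM3 and 1040, 1297 and 955 CPM in AFNCM1 to AFNCM3, so the names overlapped. The S-phase sum was 320, 271 and 303 CPM in the NFNCM names and 518, 556 and 493 CPM in the AFNCM names, with every AFNCM name above every NFNCM name. Pooled, AFNCM wells held 1.34 times the mitotic and 1.76 times the S-phase level of NFNCM wells. Fibroblast markers, at 2602 CPM in AFNCM and 1077 CPM in NFNCM wells, went the same way.

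**Figure D3:**
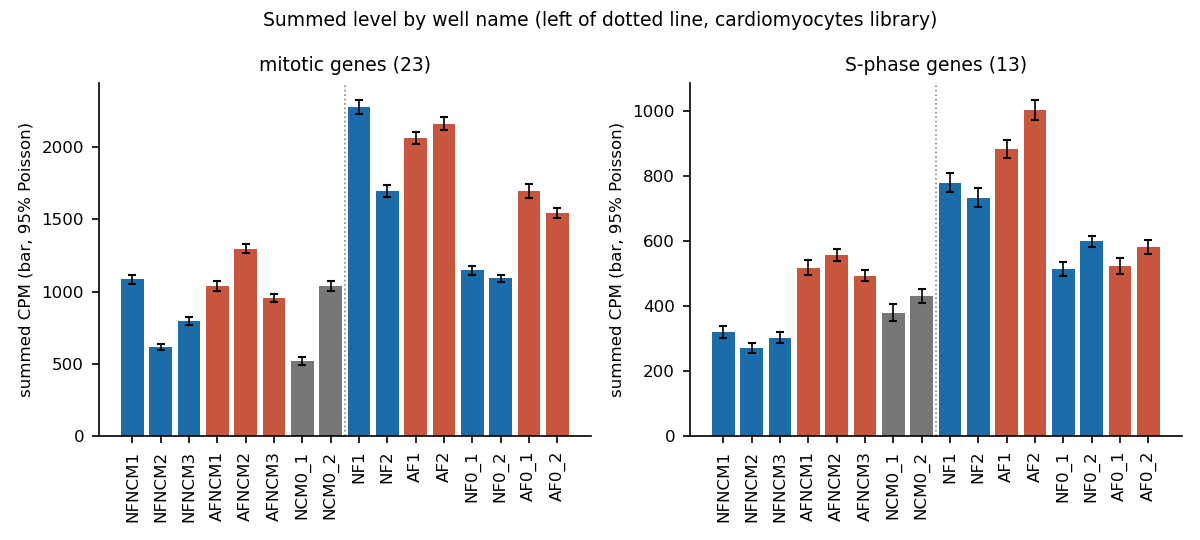
Summed CPM of the 23 mitotic genes (left panel) and 13 S-phase genes (right panel) by numbered well name, with 95% Poisson intervals that cover counting error only. Names beginning with AF are red, with NF blue and with NCM0 grey; the S-phase bars of all 3 AFNCM names stand above those of all 3 NFNCM names.

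Single genes followed the sums. Of 36 genes, 35 were higher in AFNCM than in NFNCM wells when pooled, the exception being Kif11, the kinesin of the bipolar spindle, at a ratio of 0.95. In 10 genes every AFNCM name lay above every NFNCM name, and in 0 genes every AFNCM name lay below. Of the 10, 8 were S-phase genes (Ccne2, Mcm5, Mcm6, Mcm7, Pcna, Rrm1, Rrm2 and Tyms) and 2 mitotic (Cdc20 and Top2a). These counts were not made over all genes, so no background share can be set beside them. Tyms had 53.9, 37.9 and 57.1 CPM in the NFNCM names and 118, 125 and 127 CPM in the AFNCM names. Rrm2 had 24.0, 15.8 and 18.4 CPM against 39.2, 55.2 and 44.2 CPM.

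Genes called lower in bulk were no lower here. Cdc20 stood at 4.29 CPM (95% Poisson interval 3.24 to 5.57, 56 UMIs) in NFNCM and 8.55 CPM (7.14 to 10.2, 129 UMIs) in AFNCM wells. Plk1 stood at 10.3 CPM (8.67 to 12.2) and 23.6 CPM (21.2 to 26.2), and Aurkb at 7.27 CPM (5.88 to 8.89) and 9.74 CPM (8.23 to 11.5). Ccnb2 was at 27.3 and 35.3, Ube2c at 27.6 and 30.2, Aurka at 6.58 and 8.15, Ccnb1 at 17.99 and 18.8, and Cenpa at 59.3 and 60.7 CPM. The intervals of NFNCM and AFNCM, which cover counting error only, overlapped for Aurkb, Ube2c, Aurka, Ccnb1 and Cenpa. They did not for Cdc20, Plk1 and Ccnb2. By numbered name Plk1 overlapped (6.07, 6.02 and 18.2 against 15.7, 34.6 and 17.9 CPM). Ccnb2 overlapped too (29.1, 19.4 and 33.5 against 35.9, 30.2 and 40.0 CPM), and Cdc20 did not.

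Mki67 was read in every group of wells. It stood at 71.2 CPM (66.7 to 75.9) in NFNCM, 103 CPM (97.9 to 108) in AFNCM and 126 CPM (117 to 135) in NCM0 wells, against 260 CPM (249 to 273) in NF and 217 CPM (208 to 227) in AF wells. After each well was thinned to 5000 UMIs, which left out 296 shallower wells, an Mki67 UMI was seen in 13.4% of 410 NFNCM wells (exact binomial 95% interval 10.3% to 17.1%), 20.1% of 438 AFNCM wells (16.4% to 24.2%) and 15.8% of 215 NCM0 wells (11.2% to 21.4%). It was seen in 41.7% of 223 NF wells (35.2% to 48.5%), 34.1% of 208 AF wells (27.7% to 41.0%), 23.6% of 288 NF0 wells (18.8% to 28.9%) and 48.5% of 169 AF0 wells (40.8% to 56.3%). Before thinning the NFNCM, AFNCM and AF0 shares were 18.4%, 29.5% and 82.9%, at median depths of 18770, 19709 and 38627 UMIs. AFNCM and NFNCM intervals overlapped after thinning.

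A well with at least 5 of the 23 mitotic genes among its 5000 UMIs is a stricter sign than a single UMI. Such wells made up 10.2% of NFNCM wells (95% interval 7.48% to 13.6%), 21.5% of AFNCM wells (17.7% to 25.6%) and 7.44% of NCM0 wells (4.31% to 11.8%). In the fibroblasts library they made up 38.6% of NF, 35.1% of AF, 20.5% of NF0 and 51.5% of AF0 wells. At 2000 UMIs the order changed, with 15.9% of NF, 19.2% of AF, 6.95% of NF0 and 12.4% of AF0 wells, and the shares in NFNCM and AFNCM were 6.05% and 8.63% (intervals 4.12% to 8.52% and 6.32% to 11.5%, which overlap). The signal was concentrated in few wells, since the tenth of wells richest in mitotic UMIs held 85.4% of them in NFNCM and 63.9% in AFNCM wells.

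Wells with many mitotic genes carried few cardiomyocyte transcripts. In NFNCM the 42 wells with at least 5 mitotic genes had a median of 18 cardiomyocyte marker UMIs of 5000, against 303 in the other 368 wells. In AFNCM the medians were 29.5 in 94 wells and 224 in 344 wells, and in NCM0 62.5 in 16 wells and 257 in 199 wells. Fibroblast marker UMIs went the other way, with medians of 13.5 against 0 in NFNCM, 25.5 against 3 in AFNCM and 9 against 2 in NCM0 wells. Mitotic wells were also deeper before thinning, at a median of 33684 against 25242 UMIs in NFNCM and 28713 against 24215 in AFNCM.

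**Figure D4:**
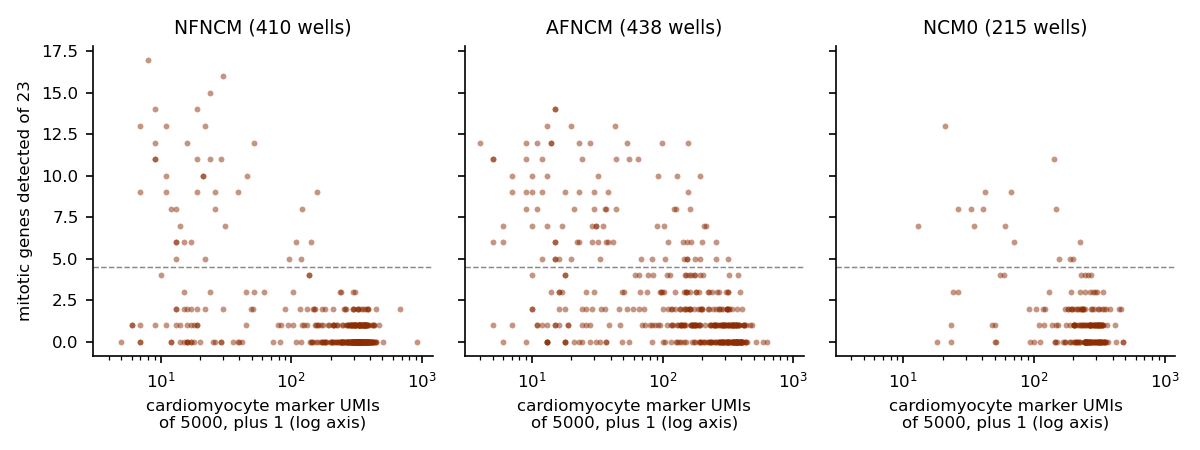
Each point is a well of the cardiomyocytes library thinned to 5000 UMIs; the x axis gives cardiomyocyte marker UMIs plus 1 (log axis) and the y axis the number of the 23 mitotic genes detected. Wells above the dashed line (at least 5 mitotic genes) lie mostly at low cardiomyocyte marker counts, with a median of 18 UMIs in NFNCM and 29.5 in AFNCM wells before adding 1.

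The cardiomyocytes library was therefore split by the ratio of marker sums, a range and not a cell type, set after the values had been seen. Wells with cardiomyocyte markers over 10 times fibroblast markers numbered 423 in NFNCM, 345 in AFNCM and 227 in NCM0, of which 28, 69 and 12 lay near the limit. Their mitotic sum was 303 CPM (293 to 314) in NFNCM, 428 CPM (415.21 to 440.996) in AFNCM and 577 CPM (556 to 598) in NCM0 wells. By numbered name it ran from 181 to 447, from 270 to 509 and from 246 to 801 CPM, so all 3 overlapped. Their S-phase sum was 166, 285 and 292 CPM.

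The remaining wells, with the marker ratio between the limits, had pooled mitotic sums of 2394 CPM (2341 to 2448) in 100 NFNCM, 2421 CPM (2378 to 2464) in 169 AFNCM and 2346 CPM (2243 to 2453) in 31 NCM0 wells. By numbered name these ran from 1925 to 2823, from 1938 to 2805 and from 2275 to 2389 CPM. They made up 19.1% of NFNCM, 32.8% of AFNCM and 12.0% of NCM0 wells. At least 5 mitotic genes were found in 43.2%, 51.4% and 43.5% of them after thinning, against 2.13%, 6.23% and 3.12% of the wells rich in cardiomyocyte markers. The share of these wells was higher in AFNCM than in NFNCM wells, as was the pooled mitotic level. NCM0 wells had the lowest share and a pooled mitotic level of 828 CPM, with 518 CPM in NCM0_1 and 1036 CPM in NCM0_2. The pooled level of NFNCM wells was 822 CPM. The part of the share in these levels was not tested. In the fibroblasts library 80.9% of NF but 10.5% of AF wells lay between the same limits. Of AF wells 88.6% had fibroblast markers over 10 times cardiomyocyte markers. The limits thus did not sort wells of the 2 fibroblast names alike, and the shares in NFNCM and AFNCM need not count the same kind of well.

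**Figure D5:**
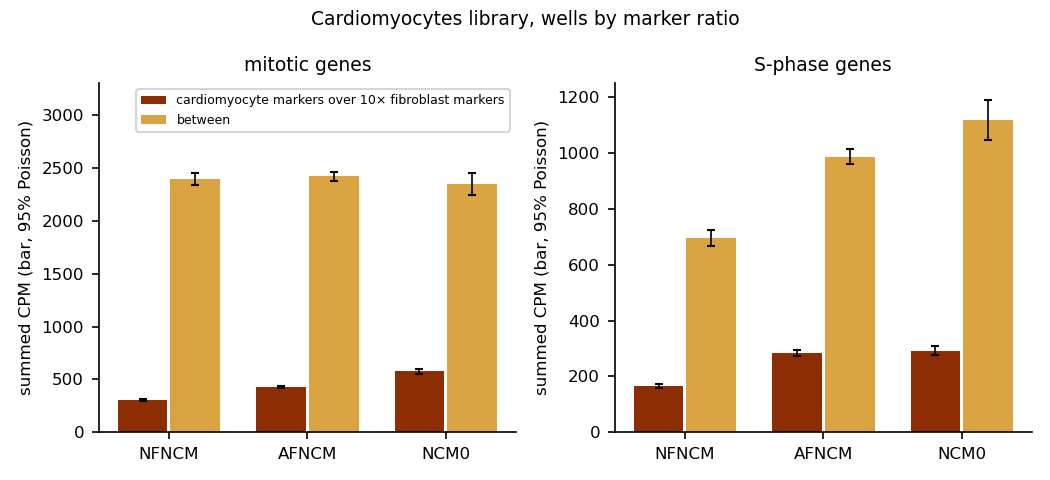
Summed CPM of the mitotic (left) and S-phase genes (right) in wells of the cardiomyocytes library, split by whether cardiomyocyte markers exceed fibroblast markers more than 10-fold, with 95% Poisson intervals that cover counting error only. The mitotic bars of the wells between the limits stand at 2394, 2421 and 2346 CPM, above the 303, 428 and 577 CPM of the wells rich in cardiomyocyte markers.

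Within the fibroblasts library, mitotic genes of AF and NF wells lay close together. The mitotic sum was 2280 and 1697 CPM in NF1 and NF2 and 2066 and 2164 CPM in AF1 and AF2, so the AF names lay between the NF names. The S-phase sum was higher in AF wells, at 883 and 1003 against 779 and 733 CPM. Of the 36 genes 20 were higher and 16 lower in AF wells when pooled, with ratios from 0.676 for Mcm3 to 2.40 for Mcm5. The same count over all genes was not made. Cardiomyocyte markers were also present in these wells, at 3924 CPM in NF and 698 CPM in AF. Fibroblast markers stood at 3110 CPM in NF and 8764 CPM in AF wells.

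The wells named with 0 differed more, in markers as well as in mitotic genes. Cardiomyocyte markers summed to 5469 CPM in NF0 and 278 CPM in AF0 wells, and fibroblast markers to 4344 and 3562 CPM. The part of these markers' cell types in the mitotic difference was not tested. Mitotic sums were 1149 and 1092 CPM in NF0_1 and NF0_2 and 1697 and 1546 CPM in AF0_1 and AF0_2, without overlap, while S-phase sums were 514 and 598 against 523 and 580 CPM. AF0 wells thus had the highest mitotic sum relative to the S-phase sum of the 7 groups of wells, 2.87 when pooled, followed by 2.77 in NFNCM wells, and NF0 wells the lowest, 1.96. The numbered names spread more widely, from 1.36 in NCM0_1 to 3.39 in NFNCM1, with 3.25 and 2.66 in the AF0 names and 2.24 and 1.82 in the NF0 names. NF wells exceeded NF0 wells in 33 of 36 genes when pooled, and in 23 of them both NF names lay above both NF0 names. No such counts were made over all genes, so these have no background share.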

How the data were processed

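The authors deposited raw counts per gene for bulk libraries, aligned to mm10 with subread, uniquely placed and assigned to built-in RefSeq genes by featureCounts, and UMI counts per well for single cells, aligned with STAR 2.5.2b. Per-well percentages of aligned reads were computed from the deposited report counts. Whether strand was used is not given in the sources used here. edgeR 4.0.16 (TMM, quasi-likelihood, Benjamini-Hochberg over 14041 genes, R 4.3.3) gave the tests, and the procedure was tested on simulated data. Symbols came from RefSeq by Entrez identifier, and 1904 identifiers without one held 3.52% of counts. RPKM used exon lengths of GENCODE vM21. Wells needed 500 genes, over 50% aligned reads and UMIs within 2 SD of the mean. Mitochondrial genes and spike-ins were left out, and no doublet caller was run on wells the study had selected by imaging. All per-sample columns were mapped. Deposited fold changes of the authors' comparison were not used. Members and lists were chosen with earlier results of these data known. Values are given for every called member, Mki67 and Aurkb, for at most 2 called genes of each other list, and for further members picked after their values were seen.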

Additional observations from a re-analysis of the deposited data

Results flagged for a closer look

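The S-phase genes went in opposite directions in the bulk and single-cell data. Their summed level was lower in both imCM-AF libraries than in both imCM-NF libraries (810 and 748 against 832 and 994 CPM), while every AFNCM name lay above every NFNCM name, at a pooled ratio of 1.76. No S-phase gene was called in bulk, and without imCM-NF replicate 2 the median log2 fold change of the 13 genes was -0.021 in place of -0.23. The difference between the comparisons was not tested, since the single-cell values come from 1 library, and the labels do not define the well names.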

How the results depend on the processing

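Calls among the mitotic genes numbered 8 with limma-voom, DESeq2, other size factors and a CPM minimum of 5, 9 without a filter, 19 with the adjusted p alone and 1 with a log2 threshold of 1. Leaving out 1 library gave between 2 and 15. S-phase calls were 0 except with the adjusted p alone, which gave 3. Over all genes the calls were 1564, 3789 with the adjusted p alone, 565 with the log2 threshold of 1, and between 879 and 1929 without 1 library. Same-numbered libraries deviated with a correlation of -0.18, so the numbers do not pair them; the fit with the replicate number as a block gave 8 mitotic, 0 S-phase and 1430 calls over all genes, and the crossed pairing, chosen after seeing the data, 8, 0 and 1668. Without imCM-NF replicate 2 the log2 fold change turned positive for Bub1 (0.12), Rrm2 (0.0018), Mcm2 (0.016), Pcna (0.045) and Ccne1 (0.042), and without imCM-NF replicate 1 it was lowest (-0.27, -0.45, -0.36, -0.25 and -0.14). Over all alternatives, 424 values of single genes kept direction and side of the threshold, 25 gained and 14 lost it.

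In single cells, counting mitochondrial UMIs in the total gave mitotic sums of 857 (AFNCM), 1952 (AF), 1011 (NF0) and 1496 CPM (AF0), and S-phase sums of 232 (NFNCM), 406 (AFNCM), 313 (NCM0) and 682 CPM (NF). Every well of a name gave mitotic sums of 2039 (AF) and 964 (NF0) and S-phase sums of 328 (NFNCM), 484 (AFNCM) and 714 CPM (NF). Equal weights gave mitotic sums of 1970 (AF) and 1159 CPM (NF0). Shares of wells with an Mki67 UMI were 18.4%, 29.5%, 25.6%, 53.5%, 51.1%, 41.2% and 82.9% without thinning and 7.06%, 11.4%, 9.09%, 26.2%, 21.5%, 12.6% and 25.9% at 2000 UMIs (NFNCM, AFNCM, NCM0, NF, AF, NF0, AF0). AFNCM stayed above NFNCM in all of these. Depth limits genes such as Cdc20, with 56 UMIs in all NFNCM wells.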
